A study of Mus musculus with 77 samples.

Results

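Livers of mice exposed to 1500 ppm of di(2-ethylhexyl) phthalate (DEHP), a branched dialkyl ester used to soften plastics, are compared here with livers of phthalate controls at 0 ppm, over all genes. The samples were chosen by their labels alone: 4 at 1500 ppm and 10 controls, 14 of the 77 samples of the series. All mice were males of the hybrid strain B6C3F1, exposed for 7 days, and their RNA was measured on Illumina bead arrays, deposited with 1 signal per gene. The study gave mice of this kind DEHP, other phthalates or phenobarbital at several doses and asked from which dose early changes tied to the receptor PPARA appear. The 1500 ppm samples were also set against 750 and 3000 ppm DEHP and against 1500 ppm n-butyl benzyl phthalate (BBP), each with 4 samples. The labels give doses in ppm without the medium, and ages are not given in the sources used here.

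PPARA is a nuclear receptor of hepatocytes that binds fatty acids and pairs with RXR on DNA. In rodents it turns on genes that transport and oxidize fatty acids, many of them in peroxisomes, and sustained activation multiplies these organelles. DEHP is cleaved in gut and liver to a monoester known to activate PPARA, and some phthalates also raise targets of CAR, the receptor through which phenobarbital acts.

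The 10 controls carry only 4 label numbers: 3 samples are numbered 32, 2 are numbered 45, 2 are numbered 63 and 3 are numbered 75, while the DEHP samples carry a number each. The labels do not say what a number means or which samples are separate animals, so p-values measure the spread between samples, which may be technical. The 3 controls numbered 32 were singled out earlier on these data for high PPARA targets, so each result was repeated without them. A call gained or a fold enlarged that way is no separate support. DEHP replicate 3 stood apart, with a correlation of 0.962 with the rest of its group against 0.989 to 0.990 for the others, and results that turn on it are also given without it. Between 43.73 and 45.43% of genes were detected in the DEHP samples, and between 41.95 and 45.37% in controls. None of the 11 hepatocyte markers was called, where 4.57% of all tested genes were. Their summed intensity was 54130 to 59240 at 1500 ppm and 55200 to 64740 in controls. In bulk liver, fewer cells of a type and less RNA per cell cannot be told apart.

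With DEHP 1500 ppm against phthalate controls, 518 of 11324 tested genes (4.57%) differed from controls by limma at an adjusted p under 0.05. Of these, 287 were higher (2.53%) and 231 lower (2.04%), with 84 of the higher and 32 of the lower genes past 2-fold. The DEHP samples did not overlap the controls in 263 genes (2.32%), lying above all of them in 152 (1.34%) and below all of them in 111 (0.98%). The median change over all genes was -0.01 (log2). The scaling was varied over 5 settings: the one reported, no background correction, the neqc method, each array centred on its median in place of quantile normalization, and the authors' deposited matrix. With median centring, 102 genes were called higher and 30 lower, so the share of higher genes moved to 77.3% from 55.4%. Calls of a list under median centring are to be read against these smaller totals. Averaging samples of 1 number left 317 calls. Of the genes named below, averaging ended the calls of Pdk4, Eci2, Pex3, Pex5, Vnn3, Gpam, Sesn2, Stard4, Hsd17b7, Elovl5, C1qa, C1qb, Hal, Rsad2, Mx2, Usp18 and Irf7. Fitting only these 2 groups ended those of Pdk4, Acot8, Crat, Pex19, Pex3, Pex5, Slc22a5, Gpam, Abcc2, Sesn2, Stard4, Hsd17b7, Acsl5, Elovl5, Abcb4, C1qa, C1qb, Serpina3m, Hal, Csad, Dnajc3, Rsad2, Mx2 and Usp18. Of the 8 largest rises among separated genes, all but Krt23 encode enzymes of fatty acids or fatty aldehydes, and the lists with the largest shares of falling genes were complement and coagulation.

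**Figure D1:**
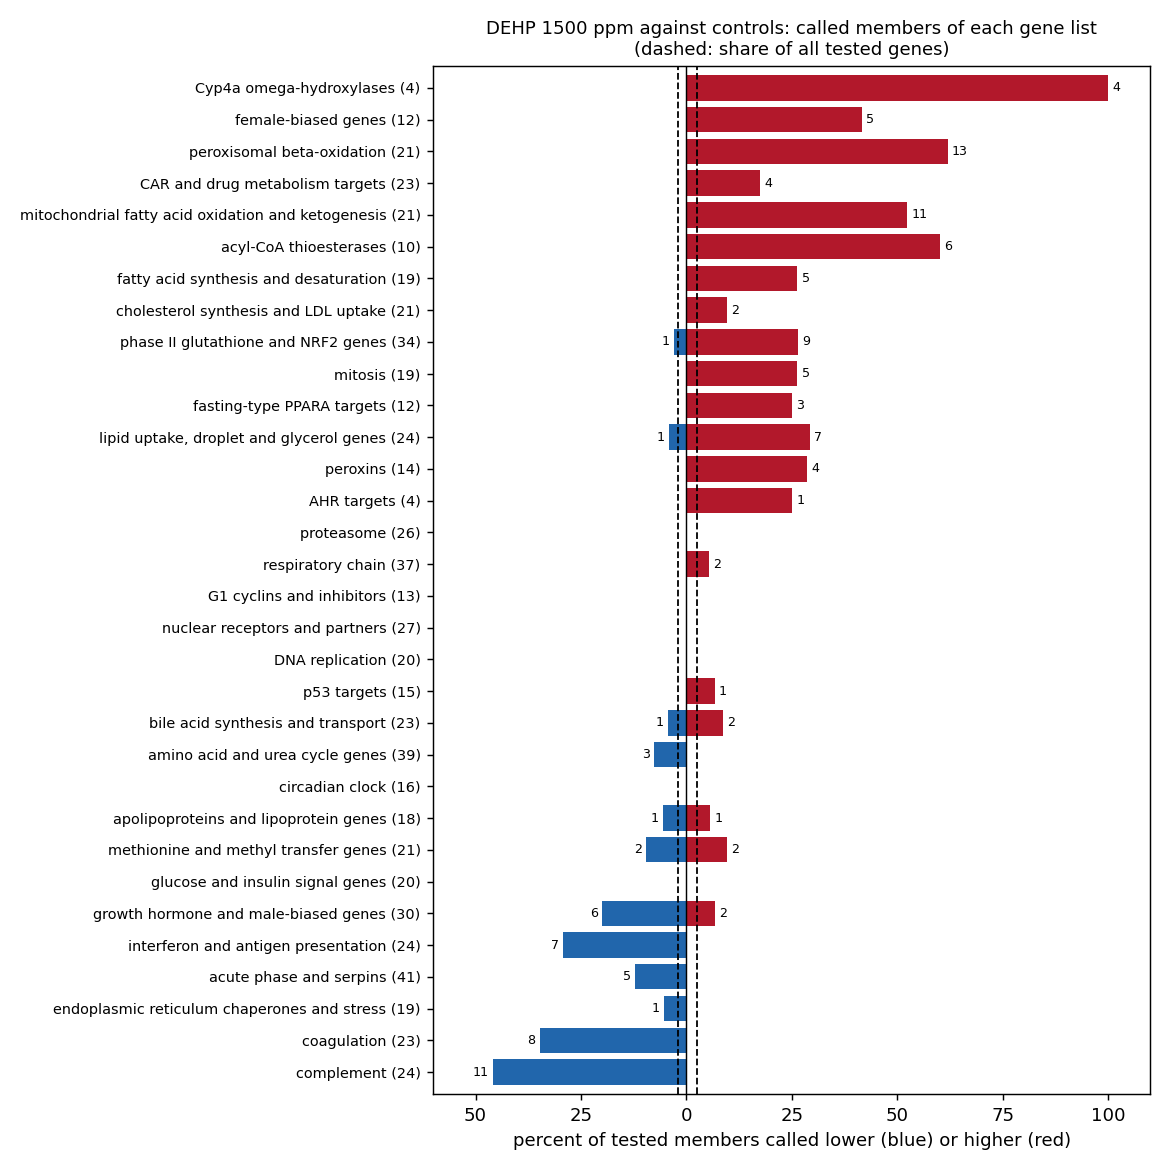
Percent of the tested members of 32 gene lists (number tested in brackets) called higher (red, to the right) or lower (blue, to the left) at 1500 ppm DEHP than in controls, with the counts at the bars. Lists run from the highest to the lowest median change, and dashed lines mark the shares of all tested genes, 2.53% higher and 2.04% lower; all 4 Cyp4a genes and 13 of 21 peroxisomal genes were higher and 11 of 24 complement genes lower.

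Cyp4a genes encode cytochromes P450 that hydroxylate the far end of fatty acids, and all 4 tested members rose, with a median log2 change of 3.53. Cyp4a14 had log2 intensities of 13.52, 13.6, 13.42 and 13.48 in the DEHP samples, against 4.50, 7.97 and 12.16 in the lowest, median and highest control. The DEHP samples lay close together above every control, while the controls spread widely with those numbered 32 on top. The rise was 35.9-fold (SE 0.80 on the log2 scale, limma adjusted p = 5.23e-06) and was 92.1-fold without those 3 controls. Cyp4a31 had 11.87, 12.26, 10.66 and 11.47 in the DEHP samples, against 5.07, 7.43 and 10.61 in the lowest, median and highest control. DEHP replicate 3 was just above the highest control, which is numbered 32. The rise was 14.3-fold (limma adjusted p = 3.9e-05), and 29.3-fold without the controls numbered 32. Cyp4a12b had 11.86, 11.53, 12.18 and 11.4, against 7.35, 8.33 and 9.96 in controls, and these groups stood well apart. It rose 9.36-fold (limma adjusted p = 1.47e-11). Cyp4a12a, strongly expressed in male mouse liver, was bright in both groups and rose 1.47-fold, a call lost with median centring. Probe sequences were not used here, so signal shared by near-identical Cyp4a genes, or by the thioesterase genes that follow, cannot be told apart.

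**Figure D2:**
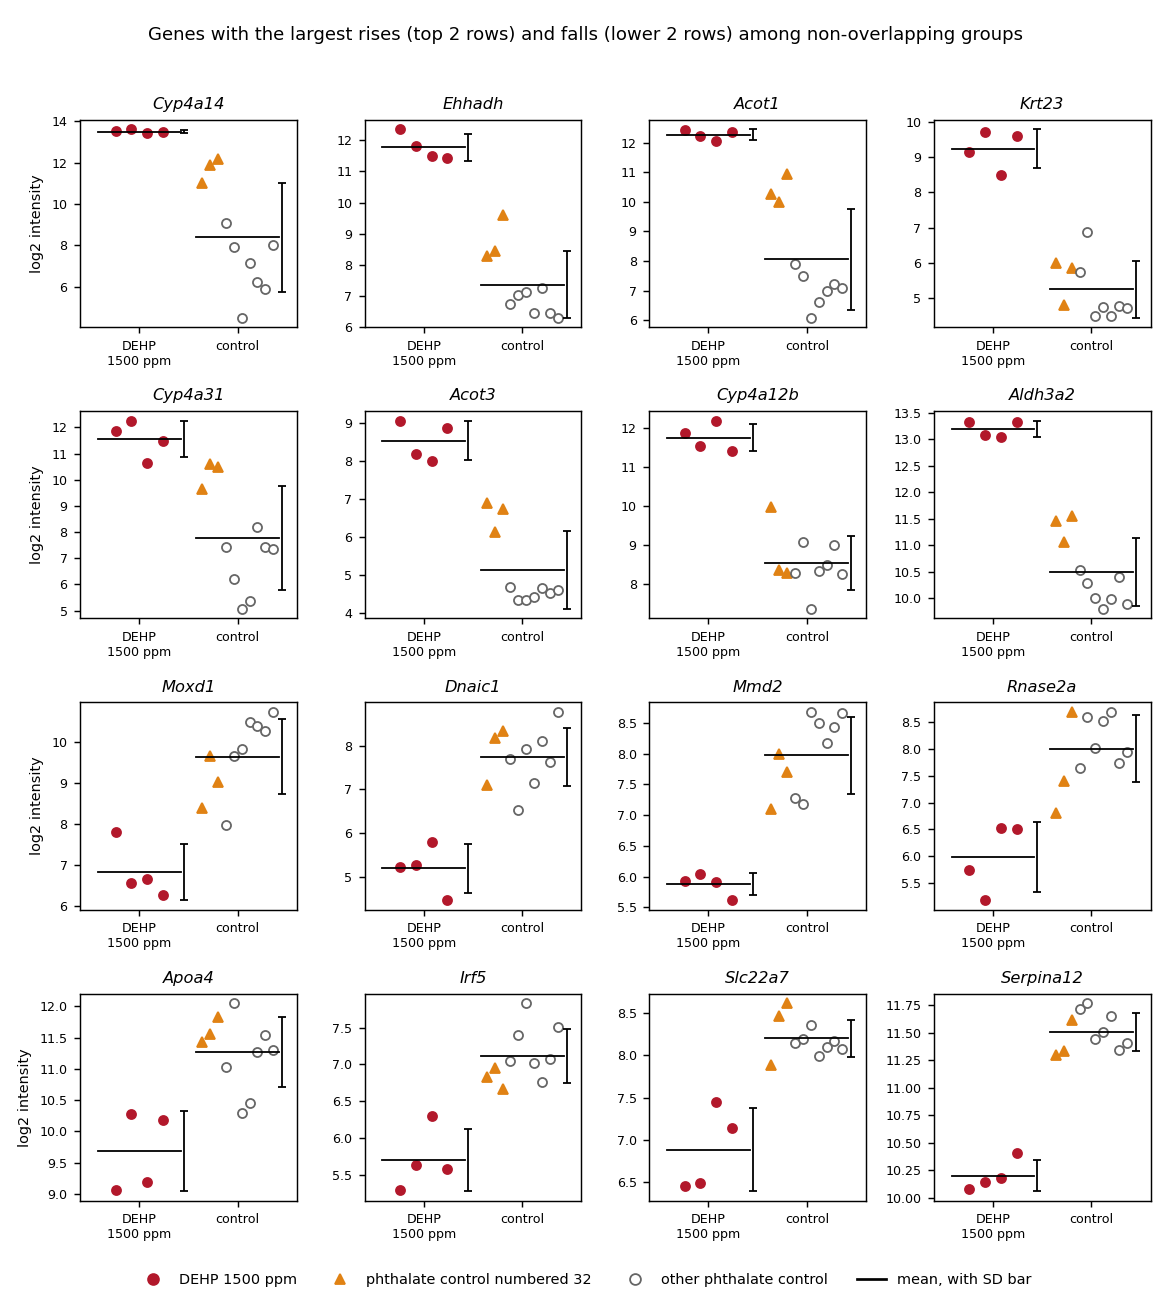
Log2 intensity of each sample for the 8 called genes with the largest rises (upper 2 rows) and the 8 with the largest falls (lower 2 rows) among genes whose groups do not overlap. Red points are DEHP 1500 ppm, triangles the controls numbered 32 and open circles the other controls, with the group mean as a line and the SD as a bar; the controls numbered 32 lie between the DEHP samples and the other controls in Cyp4a14, Acot1, Acot3 and Aldh3a2, and among the other controls in Krt23 and Dnaic1.

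Acyl-CoA thioesterases split fatty acids from coenzyme A; 6 of 10 tested members rose, none fell, and the median change was 0.57. Acot1, Acot4 and Acot3 lie side by side on chromosome 12 and had the largest rises of the list, so their promoter windows are shown. Each window runs from 250 bases before to 50 after the annotated start (RefSeq, GRCm38.p6, plus strand): chr12:84009252-84009551 for Acot1, chr12:84038129-84038428 for Acot4 and chr12:84051894-84052193 for the first of 2 annotated starts of Acot3. Capitals mark AGGNCA, the core that nuclear receptors such as PPARA and RXR are known to bind, on either strand. In Acot4 they mark a tandem form, GGNCA followed by 1 free base and AGGNCA, which holds the shorter match and is read there on the minus strand.
Acot1: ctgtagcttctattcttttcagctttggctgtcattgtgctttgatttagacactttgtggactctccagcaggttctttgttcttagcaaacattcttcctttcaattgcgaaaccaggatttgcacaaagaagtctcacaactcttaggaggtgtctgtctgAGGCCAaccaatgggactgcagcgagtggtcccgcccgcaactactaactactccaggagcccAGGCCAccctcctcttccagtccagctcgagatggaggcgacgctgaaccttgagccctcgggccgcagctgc
Acot4: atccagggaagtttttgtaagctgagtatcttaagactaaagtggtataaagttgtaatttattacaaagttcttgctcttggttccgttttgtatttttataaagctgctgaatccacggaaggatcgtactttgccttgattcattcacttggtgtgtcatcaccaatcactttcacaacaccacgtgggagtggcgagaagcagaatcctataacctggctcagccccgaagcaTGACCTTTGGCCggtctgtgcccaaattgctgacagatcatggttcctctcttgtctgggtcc
Acot3: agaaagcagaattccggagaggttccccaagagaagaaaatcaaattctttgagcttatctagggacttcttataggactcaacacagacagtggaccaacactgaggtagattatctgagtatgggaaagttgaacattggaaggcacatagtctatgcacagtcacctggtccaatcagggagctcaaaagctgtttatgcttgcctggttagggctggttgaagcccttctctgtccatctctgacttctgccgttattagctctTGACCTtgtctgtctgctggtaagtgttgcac
Acot1 holds 2 cores, Acot3 holds 1, and Acot4 holds 1 within the tandem match, which lies just before the start. The core is common, present in 58.4% of the 8527 windows of tested genes, in 66.3% of 208 windows of genes called higher and in 59.8% of 179 windows of genes called lower. The tandem form is in 1.11% of all windows, in 4 of the 208 and in 7 of the 179. These are matches of letters and not measured binding sites.

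Acot1, a cytosolic thioesterase, had 12.44, 12.23, 12.04 and 12.35 in the DEHP samples, against 6.09, 7.37 and 10.93 in the lowest, median and highest control. Every DEHP sample was above every control, and the rise was 19.0-fold (limma adjusted p = 1.68e-08), or 37.1-fold without the controls numbered 32. Acot3, a peroxisomal thioesterase, had 9.06, 8.18, 8.01 and 8.88, against 4.35, 4.63 and 6.89 in controls. The groups did not overlap and the rise was 10.7-fold (limma adjusted p = 7.08e-08). Acot3 was detected in only 3 of 10 controls, and the rise was 3.26 to 10.7-fold over the scalings tried. Acot4, also peroxisomal, had 9.06, 8.68, 9.27 and 8.94, against 5.72, 6.45 and 8.49 in controls, again without overlap. It rose 4.88-fold (limma adjusted p = 1.05e-07), with a range of 3.04 to 5.01-fold over the scalings. Acot8, Acot12 and Acot2 rose by 0.83, 0.61 and 0.43 (log2), while Acot13, Acot9, Acot11 and Them4 did not pass, at 0.23, -0.29, -0.32 and 0.53. The list mean lay 1.11 to 1.30 above the control mean in the DEHP samples. It was 0.47 to 0.79 in the controls numbered 32 and -0.41 to -0.13 in the other controls. This mean includes the genes above, so it is no separate support. Acot1, Acot3 and Acot4 raise it well above the list's median change of 0.57.

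Peroxisomal beta-oxidation shortens long and very long fatty acids, and 13 of 21 tested members rose and none fell, with a median change of 0.67. Ehhadh, the bifunctional enzyme of the middle steps, had 12.35, 11.82, 11.49 and 11.42 in the DEHP samples, against 6.30, 7.08 and 9.59 in the lowest, median and highest control. No control came near the DEHP samples, and the rise was 21.4-fold (SE 0.46 on the log2 scale, limma adjusted p = 1.53e-10). It was 13.6 to 21.9-fold over the scalings and 31.99-fold without the controls numbered 32. Crat, the carnitine acetyltransferase that helps export short products, rose 2.74-fold with overlap, at 7.39, 7.34, 8.27 and 7.74 against 4.86, 6.05 and 7.98 in controls (1.53 to 2.90-fold over the scalings). Its call was lost when only the 2 groups entered the fit. Acsl1, which activates long-chain fatty acids, rose 2.51-fold, a call lost without DEHP replicate 1. The isomerase Eci2 rose 2.47-fold, and that call was lost without replicate 1, 2 or 3 and with median centring. Ech1 and the transporter Abcd2 rose by 1.02 and 1.12, the thiolase Acaa1b by 0.97 and Hsd17b4 by 0.59 (log2). Catalase (Cat), which removes hydrogen peroxide, stood at 0.20 and the carrier Scp2 at -0.19, and neither passed. With median centring, 7 of the 21 were called and the median change was 0.72. That scaling called 102 of all tested genes higher, against 287 as reported.

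Peroxins build, import into and divide peroxisomes; 4 of 14 tested members rose and none fell, with a median of 0.21. Pex11a, which divides the organelle, had 11.08, 10.76, 11.72 and 11.3 in the DEHP samples, against 8.597, 9.001 and 10.58 in the lowest, median and highest control. The groups did not overlap, and the rise was 3.91-fold (limma adjusted p = 1.72e-08). The import genes Pex19, Pex3 and Pex5 rose by 0.64, 0.40 and 0.25 (log2) and overlapped the controls. These 3 calls were lost with median centring, that of Pex19 also without DEHP replicate 3, and those of Pex3 and Pex5 without replicate 1, 2 or 4. Pex3 also lost its call without control replicate 4, 5, 6 or 10, and Pex5 without control replicate 2, 5 or 7 and without the controls numbered 32.

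In mitochondrial fatty acid oxidation and ketogenesis, 11 of 21 tested members rose and none fell, with a median of 0.58. Cpt1b, a carnitine palmitoyltransferase mostly known from muscle, had 6.56, 6.13, 6.63 and 6.32 in the DEHP samples, against 4.52, 4.81 and 6.08 in the lowest, median and highest control. It was dim, and although the groups did not overlap its 2.60-fold rise (limma adjusted p = 3.24e-06) ran from 1.18 to 2.60-fold over the scalings. Eci1, an isomerase for unsaturated fatty acids, had 11.74, 11.67, 11.5 and 11.52, against 9.91, 10.42 and 10.83 in controls. This bright gene rose 2.40-fold without overlap (limma adjusted p = 1.83e-07; 2.28 to 2.48-fold over the scalings). Acadl, the long-chain acyl-CoA dehydrogenase, rose 2.29-fold, and the carnitine importer Slc22a5 rose 2.15-fold with overlap, a call lost with median centring. Decr1, Slc25a20, Acadm and Cpt2 rose by 1.10, 0.91, 0.81 and 0.67 (log2). With median centring, which called fewer genes of all kinds, 5 of the 21 were called and the median change was 0.62. DEHP replicate 3 was lowest of its group for the list mean, which ran from 0.35 to 0.78 above the control mean in the DEHP samples, from 0.20 to 0.44 in the controls numbered 32 and from -0.28 to -0.03 in the other controls.

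**Figure D3:**
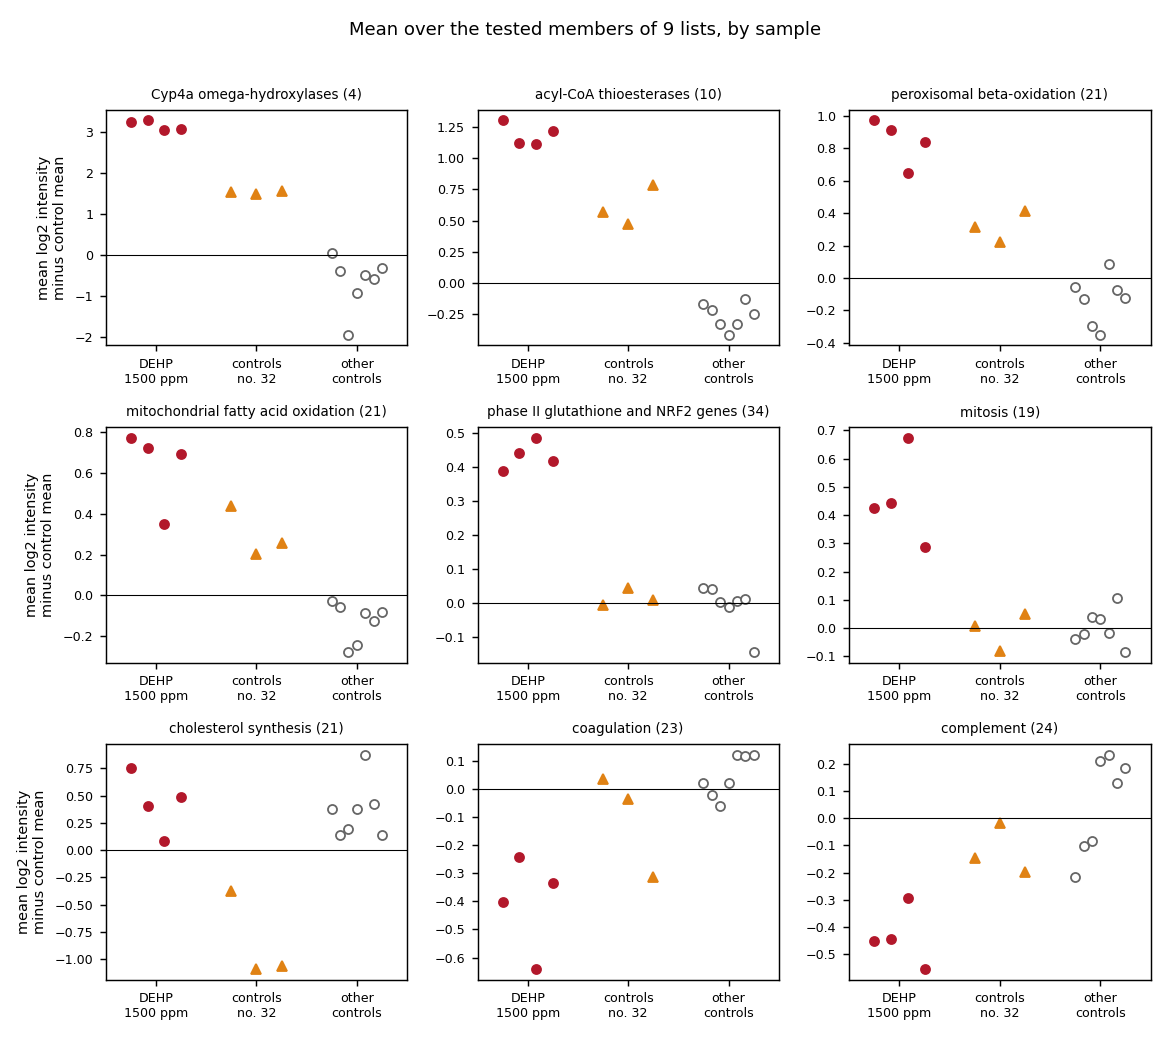
Mean log2 intensity of the tested members of 9 gene lists in each sample, minus the mean of all controls, for DEHP 1500 ppm, the controls numbered 32 and the other controls. For the Cyp4a list the DEHP samples lie at 3.05 to 3.29, the controls numbered 32 at 1.50 to 1.57 and the other controls at -1.94 to 0.05.

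PPARA is also active in fasting, and 3 of 12 genes known for that response rose, with a median of 0.23. Retsat, which saturates retinol, had 13.09, 13.22, 13.02 and 13.12 in the DEHP samples, against 10.3, 10.98 and 12.25 in the lowest, median and highest control. It rose 3.87-fold without overlap (limma adjusted p = 7.08e-08). Pdk4, the kinase that holds back pyruvate dehydrogenase, had 9.27, 8.80, 8.27 and 8.31, against 5.71, 6.65 and 9.12 in controls. The top control exceeded 3 DEHP samples, and the 3.07-fold rise (limma adjusted p = 0.0239) was lost without DEHP replicate 1 or 2, without control replicate 7, with median centring and with samples of 1 number averaged. Vnn3 rose 1.96-fold, a call that 3 of the 4 omissions of a DEHP sample (replicates 2, 3 and 4) and those of control replicates 4, 5, 6, 7, 8 and 10 each ended. It was also lost with neqc, with median centring, with no filter on dim genes and with samples of 1 number averaged. The hormone Fgf21 had 8.18, 8.17, 7.11 and 8.52, against 6.38, 7.53 and 9.76 in controls, with overlap and no call (limma adjusted p = 0.917). For this list the controls numbered 32 lay at 0.53 to 0.81 above the control mean, the DEHP samples at 0.42 to 0.52 and the other controls at -0.65 to -0.10.

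Of 24 genes of lipid uptake, droplets and glycerol, 7 rose and 1 fell, with a median of 0.22. Lpl, the lipase that frees fatty acids from circulating triglyceride, had 11.21, 10.9, 11.41 and 10.48 in the DEHP samples, against 9.06, 9.63 and 9.91 in the lowest, median and highest control. It rose 2.76-fold without overlap (limma adjusted p = 0.000673). The phosphatidate phosphatase Lpin2 rose 2.91-fold and the monoglyceride lipase Mgll 2.01-fold, both without overlap. Gpam, the first acyltransferase of glycerolipid synthesis, rose 2.62-fold with overlap, at 7.59, 7.65, 6.54 and 8.02 against 4.71, 6.10 and 7.06 in controls. That call was lost without DEHP replicate 1, 2 or 4, without control replicate 2, 3 or 10, without the controls numbered 32 and with median centring. Dgat2, of the last step of triglyceride synthesis, fell by 0.74 (log2).

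Among fatty acid synthesis and desaturation genes, 5 of 19 rose and none fell, with a median of 0.41, and 2 were called with median centring, with a median of 0.46. Me1, the malic enzyme that supplies NADPH, had 9.99, 9.60, 9.52 and 8.94 in the DEHP samples, against 6.597, 7.235 and 7.999 in the lowest, median and highest control. It rose 4.80-fold without overlap (limma adjusted p = 0.00733). The desaturase Fads2 rose 2.06-fold, also without overlap. Acsl5 rose 1.53-fold and the elongase Elovl5 1.31-fold, and both calls were lost with median centring. Elovl5 also lost its call without DEHP replicate 1, 2 or 4 and without control replicate 8, 9 or 10. Fasn, the fatty acid synthase, did not pass, at 6.60, 6.20, 5.08 and 6.10 against 4.91, 5.36 and 6.26 in controls (limma adjusted p = 0.438).

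The cholesterol list turned on the controls numbered 32. Of 21 members, Stard4, a sterol carrier, and Hsd17b7, a synthesis enzyme, rose 1.74-fold and 1.46-fold, and the list median was 0.32. Without those 3 controls neither was called, 1 other member (Tm7sf2) was, and the median was -0.04. The list mean ran from 0.09 to 0.75 around the control mean in the DEHP samples, from -1.09 to -0.37 in the controls numbered 32 and from 0.14 to 0.88 in the other controls. Neither gene was called without DEHP replicate 1, 3 or 4, without control replicate 2, or with median centring, nor Stard4 without control replicate 3, 7 or 10 and Hsd17b7 without control replicate 5.

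CAR and drug metabolism targets had 4 rises among 23 tested members and no fall, with a median of 0.60. Abcc3, an exporter of conjugates, had 10.65, 10.89, 10.19 and 10.85 in the DEHP samples, against 7.66, 8.44 and 9.57 in the lowest, median and highest control. It rose 4.74-fold without overlap (limma adjusted p = 4.18e-09). Cyp3a11, a drug-oxidizing P450, had 12.37, 12.82, 10.02 and 12.54, against 8.47, 9.17 and 10.46 in controls, so replicate 3 lay among the controls and the other DEHP samples far above. The rise was 6.28-fold with all samples (limma adjusted p = 0.000117), and the log2 change was 3.29 without replicate 3, against 2.65 with it. Cyp2c39 rose 2.47-fold but was detected in 4 of 10 controls, with a range of 1.14 to 2.47-fold over the scalings. Abcc2, another exporter, rose 1.68-fold, a call lost without DEHP replicate 2 or 4 and with median centring. Cyp2b10, the standard CAR target, had 4.61, 4.38, 4.40 and 4.40, against 4.29, 4.37 and 4.77 in controls. It was detected in 1 of 4 DEHP samples and 1 of 10 controls and was not called (limma adjusted p = 0.951).

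Among phase II, glutathione and NRF2 genes, 9 of 34 rose and 1 fell, with a median of 0.31, and 5 rose and 1 fell with median centring. Gstt2, a theta-class glutathione transferase, had 8.98, 9.32, 9.75 and 9.15 in the DEHP samples, against 6.55, 7.38 and 7.93 in the lowest, median and highest control. It rose 3.95-fold without overlap (limma adjusted p = 1.72e-08). Gstm4 rose 2.67-fold and the epoxide hydrolase Ephx1 2.20-fold, both without overlap. Gstp1, a transferase that male mice express more than females, fell by 0.79 (log2), while Nqo1 at 0.07 and Gclc at 1.16 did not pass. The list mean was 0.39 to 0.49 above the control mean in the DEHP samples, 0.00 to 0.04 around it in the controls numbered 32 and -0.14 to 0.05 in the other controls. In the short AHR list the 1 call of 4 was Nfe2l2, which encodes NRF2 itself, with a fold of 2.05 that ran from 1.14 to 2.05 over the scalings. It seems to be read by several probes, and its detection p-value passed in 1 of 4 DEHP samples.

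Bile acid genes had 2 rises and 1 fall among 23 tested members, where 2.53% of all tested genes rose and 2.04% fell. Cyp7b1, the hydroxylase of the alternative synthesis pathway, had 12.95, 12.57, 12.6 and 13.03 in the DEHP samples, against 13.15, 13.5 and 13.77 in the lowest, median and highest control. All DEHP samples were below all controls, at 0.618 of the control level (limma adjusted p = 0.00234), a call lost with median centring. Cyp7a1, the rate-limiting enzyme of the main pathway, had 5.85, 7.99, 6.46 and 5.93, against 6.79, 7.93 and 8.97 in controls. Replicate 2 lay among the controls, and the difference did not pass (limma adjusted p = 0.204). The phospholipid exporter Abcb4 rose 1.70-fold, but leaving out any 1 DEHP sample, or control replicate 4, 5, 6, 7, 9 or 10, ended the call.

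Of 19 tested mitosis genes 5 rose and none fell, with a median of 0.30. None of 20 DNA replication genes and none of 13 G1 cyclins and inhibitors was called. As 4.57% of all tested genes were called, no call in lists of those sizes is close to that share. Prc1, which bundles spindle microtubules, had 6.37, 6.36, 7.27 and 5.95 in the DEHP samples, against 4.51, 5.32 and 5.68 in the lowest, median and highest control. It rose 2.39-fold without overlap (limma adjusted p = 0.00187; 1.21 to 2.39-fold over the scalings), and its log2 change was 0.9972 without replicate 3. Aurka, a spindle kinase, had 5.13, 5.28, 6.40 and 5.18, against 4.34, 4.55 and 4.72 in controls. It was detected in none of the 10 controls, so it was at least 1.91-fold higher at 1500 ppm (limma adjusted p = 0.00148), and the call was lost without replicate 3 (adjusted p = 0.0606). Cdc20, an activator of the anaphase complex, had 5.31, 5.39, 6.37 and 5.34, against 4.36, 4.51 and 4.98 in controls, and its call too was lost without replicate 3 (adjusted p = 0.0503). Spc25, of the kinetochore, rose 2.23-fold and was lowest in replicate 3, at 5.35 against 6.08 to 6.49 in the others. All of these are dim genes: 2 of the 19 were called with the neqc background method, and 2 without replicate 3. Cyclin D1 (Ccnd1) did not pass, at 8.62, 7.97, 9.47 and 9.21 against 7.13, 7.95 and 9.13 in controls (limma adjusted p = 0.138). Top2a was detected in no sample of either group. Of 15 p53 targets, Sesn2 alone was called, a count near the share of all tested genes. It was at 1.27-fold and was not called without the controls numbered 32 or without DEHP replicate 2 or 4.

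Krt23, a keratin known from bile duct cells, had the largest rise outside fatty acid metabolism. It had 9.14, 9.70, 8.5 and 9.6 in the DEHP samples, against 4.50, 4.80 and 6.87 in the lowest, median and highest control. The groups stood far apart, the rise was 15.7-fold (limma adjusted p = 4.23e-10), and it was 5.46 to 15.7-fold over the scalings. The gene was detected in 4 of 10 controls. The other 4 tested cholangiocyte markers did not pass, with Sox9 at -0.20 and Krt7 at -0.11 (log2). The summed intensity of the list was 669 to 1104 at 1500 ppm and 147 to 449 in controls, and without Krt23 it was 138 to 323 at 1500 ppm and 128 to 442 in controls. Krt19 and Cftr were undetected in all 14 samples. Aldh3a2, the fatty aldehyde dehydrogenase, was in no list and had 13.32, 13.07, 13.04 and 13.33, against 9.79, 10.34 and 11.55 in controls. It rose 6.54-fold (limma adjusted p = 1.47e-11) and 8.37-fold without the controls numbered 32.

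The largest falls among separated genes included several whose background knowledge lies outside liver. Moxd1, which also stands in the male-biased list, is a copper monooxygenase of the dopamine hydroxylase family. It had 7.81, 6.55, 6.65 and 6.26 in the DEHP samples, against 7.97, 9.74 and 10.73 in the lowest, median and highest control. Replicate 1 was just under the lowest control, and the mean was at 0.142 of the control level (limma adjusted p = 0.00733). Dnaic1, an axonemal dynein chain, had 5.23, 5.26, 5.81 and 4.47, against 6.54, 7.81 and 8.77 in controls, at 0.172 of the control level (limma adjusted p = 4.18e-05). This gene came close to background at 1500 ppm, and the ratio ran from 0.172 to 0.502 over the scalings. Mmd2, a membrane protein of the progestin and adipoQ receptor family, had 5.93, 6.04, 5.92 and 5.62, against 7.10, 8.09 and 8.68 in controls, and was at 0.235 of the control level (0.235 to 0.465 over the scalings). Rnase2a, a ribonuclease of eosinophil type listed on the array as Ear11, was at 0.245 of the control level, the interferon regulatory factor Irf5 at 0.375 and the organic anion transporter Slc22a7 at 0.402. None of these groups overlapped. Irf5 and Slc22a7 had limma adjusted p-values of 1.72e-06 and 1.44e-06, and Irf5 ran from 0.375 to 0.733 over the scalings.

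Coagulation factors and their inhibitors are secreted by hepatocytes; 8 of 23 tested genes fell and none rose, with a median of -0.36. F7 had 8.08, 8.65, 7.59 and 8.55 in the DEHP samples, against 8.73, 9.32 and 9.56 in the lowest, median and highest control. It was at 0.479 of the control level without overlap (limma adjusted p = 0.000599). F11 was at 0.620 without overlap, and F10 at 0.616 and the protein Z inhibitor Serpina10 at 0.510 with overlap. The calls of F10, F11 and Serpina10 were lost with median centring, and that of Serpina10 also without DEHP replicate 1 or 2. Under median centring 1 gene of the list was called lower, where 30 of all tested genes were, against 231 as reported. The list median was -0.32 with median centring. Leaving out single DEHP samples gave 5 to 9 calls. The list mean was -0.64 to -0.24 in the DEHP samples, -0.32 to 0.04 in the controls numbered 32 and -0.06 to 0.12 in the other controls.

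Of 24 tested complement genes 11 fell and none rose, with a median of -0.44. C8b, a chain of the membrane attack complex, had 10.87, 10.72, 11.56 and 11.06 in the DEHP samples, against 11.7, 12.01 and 12.23 in the lowest, median and highest control. It was at 0.510 of the control level (limma adjusted p = 1.41e-05). C9, the pore-forming member, had 11.18, 11.11, 11.3 and 11.26, against 11.6, 12.01 and 12.5 in controls, at 0.566 (limma adjusted p = 0.00034). Neither overlapped, and C2 and Hc fell by 0.80 and 0.56 (log2). The central component C3 stood at -0.01 and did not pass. With median centring 2 of the 24 were called lower, where 30 of all tested genes were, against 231 as reported. The median change of the list was -0.41 under that scaling. Without DEHP replicate 1 there were 6 calls.

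C1qa and C1qb, which macrophages make, were also called, at 0.571 and 0.552 with overlap. Both calls were lost with no background correction, with neqc, with median centring, in the deposited matrix and without DEHP replicate 1 or 4. That of C1qa was also lost without control replicate 7 or 8, and that of C1qb without DEHP replicate 3 or control replicate 2, 4, 7, 8, 9 or 10. They were the 2 called genes among 12 tested Kupffer cell and macrophage markers, with Clec4f at -0.44 and Adgre1 at 0.04. The summed intensity of those markers was 967 to 1805 at 1500 ppm and 1017 to 4076 in controls, with Cd5l undetected in all 14 samples, and its part in the complement falls was not tested. Endothelial marker sums were 2912 to 3717 at 1500 ppm and 3421 to 4676 in controls, and stellate marker sums 2947 to 3405 at 1500 ppm and 2573 to 3913 in controls. No endothelial, stellate, T, B and NK, neutrophil or red cell marker was called, where 4.57% of all tested genes were.

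Acute phase proteins and serpins had 5 falls and no rise among 41 tested genes, with a median of -0.30. Without DEHP replicate 1 there were 3 falls, and with median centring 2, with a median of -0.28. Serpina12, the serpin vaspin, had 10.08, 10.14, 10.18 and 10.41 in the DEHP samples, against 11.3, 11.47 and 11.77 in the lowest, median and highest control. It was at 0.404 of the control level without overlap (limma adjusted p = 0.00189; 0.390 to 0.430 over the scalings). Fetub, a fetuin, was at 0.614 without overlap and Itih4 at 0.648 with overlap, and Fetub lost its call with median centring. Serpina3m had 9.94, 10.8, 8.12 and 10.09, against 9.38, 11.52 and 12.11 in controls. Its call (0.364 of the control level) was lost without DEHP replicate 1 or 3, without control replicate 7 and with median centring. Saa1 and Lcn2, the classical acute phase genes, had large changes of -2.28 and -2.67 (log2) that did not pass. Neutrophil marker sums were 49.7 to 278 at 1500 ppm and 47.3 to 1802 in controls, and their part in these values was not tested.

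Apolipoprotein genes had 1 rise and 1 fall among 18, where 2.53% of all tested genes rose and 2.04% fell. Apoa4 had 9.07, 10.28, 9.20 and 10.19 in the DEHP samples, against 10.3, 11.36 and 12.05 in the lowest, median and highest control. It was at 0.335 of the control level, with DEHP replicates 2 and 4 just under the lowest control (limma adjusted p = 0.00117). Pltp, the phospholipid transfer protein, rose 2.15-fold with overlap from replicate 3, with 1.18 to 2.28-fold over the scalings.

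Among 30 genes of growth hormone signalling and male-biased expression, 6 fell and 2 rose, and among 12 female-biased genes 5 rose and none fell. The 2 rising male-biased genes were Cyp4a12a and Cyp4a12b, and all 5 rising female-biased genes (Abcd2, Lpl, Acot4, Acot3 and Cyp4a14) also stand in the fatty acid lists above. Egfr, a growth factor receptor that is higher in male liver, had 10.09, 9.83, 9.98 and 9.68 in the DEHP samples, against 10.79, 11.24 and 11.58 in the lowest, median and highest control. It was at 0.414 of the control level without overlap (limma adjusted p = 1.72e-06; 0.395 to 0.441 over the scalings). Hsd3b5, a male-specific steroid dehydrogenase, fell by 0.68 (log2), while the major urinary protein genes named here did not pass, with Mup1 at 0.13 and Mup3 at 0.10. Cyp2b9, a female-biased P450, had 4.96, 6.24, 4.73 and 5.25, against 4.29, 4.34 and 4.57 in controls. It was detected in 3 of 4 DEHP samples and 0 of 10 controls, at least 1.77-fold higher, but was not called (limma adjusted p = 0.187).

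Methyl transfer and sulphur amino acid genes had 2 rises and 2 falls among 21, where 2.53% of all tested genes rose and 2.04% fell. Nnmt, which methylates nicotinamide, had 8.80, 8.74, 9.93 and 9.17 in the DEHP samples, against 9.72, 11.34 and 11.92 in the lowest, median and highest control. Replicate 3 alone overlapped, and the level was 0.268 of the control level (limma adjusted p = 0.0016). Csad, of taurine synthesis, rose 2.39-fold, with replicate 3 at 8.35 among the controls and the others at 9.27 to 9.37, and its call was lost when only the 2 groups entered the fit. Choline dehydrogenase (Chdh) rose 1.92-fold without overlap (limma adjusted p = 4.18e-09). It seems to be read by several probes, and its detection p-value passed in 1 of 4 DEHP samples. Of 39 amino acid and urea cycle genes, Prodh, Nags and Hal fell, at 0.579, 0.740 and 0.735 of the control level. Over all tested genes 2.04% fell. All 3 calls were lost with median centring, that of Nags also without DEHP replicate 1 or 3, and that of Hal without any 1 DEHP sample or without control replicate 2, 4, 6, 7 or 10.

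Interferon and antigen presentation genes had 7 falls and no rise among 24, with a median of -0.29. Rsad2, an antiviral enzyme, had 7.46, 7.65, 6.02 and 6.84 in the DEHP samples, against 7.16, 7.96 and 8.77 in the lowest, median and highest control. It was at 0.512 of the control level (limma adjusted p = 0.0135) and the call was lost without replicate 3 or 4. Mx2, Usp18 and Irf7 were at 0.5375, 0.5681 and 0.5736, all with overlap, and each of these calls was lost without replicate 4, that of Mx2 also without replicate 2 and those of Usp18 and Irf7 without replicate 1. All 4 calls were lost with samples of 1 number averaged, and those of Rsad2, Mx2 and Usp18 when only the 2 groups entered the fit. The list as a whole had 0 calls without DEHP replicate 4, 0 with median centring and 2 with neqc. The mean of the Kupffer cell and macrophage markers was -0.76 in replicate 4, -0.30 to -0.15 in the other DEHP samples and -0.67 to 0.86 in controls, and the interferon list was at -0.52 in replicate 4, at -0.28 to -0.18 in the other DEHP samples and at -0.28 to 0.24 in controls. Without replicate 4 the macrophage list too had 0 calls, and its part in the interferon falls was not tested. In the endoplasmic reticulum list Dnajc3 was the 1 call of 19, near the 4.57% called over all tested genes. It was at 0.620, a call lost without replicate 2 and with median centring. Without the controls numbered 32 this list had 5 falls, and its mean was -0.55 to -0.04 in the DEHP samples, -0.58 to -0.34 in the controls numbered 32 and -0.19 to 0.68 in the other controls.

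Respiratory chain genes had 2 rises among 37, Ndufb3 (1.43-fold) and Ndufa5 (1.34-fold), both lost with median centring. With 2.53% of all tested genes called higher, this count is little above that share. No gene was called in the lists of glucose and insulin signals (20 tested), the circadian clock (16), the proteasome (26) and nuclear receptors (27). For lists of these sizes that is not far from the 4.57% called over all tested genes. Ppara itself had 8.11, 8.50, 6.96 and 8.93 in the DEHP samples, against 6.59, 7.68 and 8.85 in the lowest, median and highest control, with overlap and no call (limma adjusted p = 0.507). Its partner Rxra stood at -0.41 (log2, limma adjusted p = 0.131). CAR (Nr1i3) stood at 0.66 and was not called (limma adjusted p = 0.141), but it was without the controls numbered 32 (1.03, adjusted p = 0.00356). Those controls had 9.018, 8.975 and 9.146, as high as the DEHP samples at 8.527 to 9.134.

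Without the 3 controls numbered 32, 733 genes (6.47%) differed by limma, 394 higher (3.48%) and 339 lower (2.99%). Of the genes called against all 10 controls, 260 of the higher and 205 of the lower genes were called again, 53 were not called, and none was called in the opposite direction. A further 268 genes were called only without those controls. The folds of several PPARA targets were larger: that of Cyp4a14 was 92.1 against 35.9 with all controls, and that of Acot1 37.1 against 19.0. Larger folds of such targets were fixed in advance, because these controls were singled out for high PPARA targets. Krt23 was at 17.1-fold against 15.7-fold. Mitochondrial fatty acid genes had 14 calls of 21 without these controls. Dnajc12, a chaperone partner of amino acid hydroxylases, seems to be read by several probes, and its detection p-value passed in 0 of 4 DEHP samples. It was called only without these controls, at a log2 change of -2.39 (limma adjusted p = 0.00418) against -1.80 with them (adjusted p = 0.0527). Prtn3, a neutrophil protease, was called likewise at -2.75 (limma adjusted p = 0.0487), against -2.05 with them (adjusted p = 0.18). Scara5, a ferritin receptor, was called both ways, at 0.167 of the control level without these controls and 0.234 with them.

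**Figure D4:**
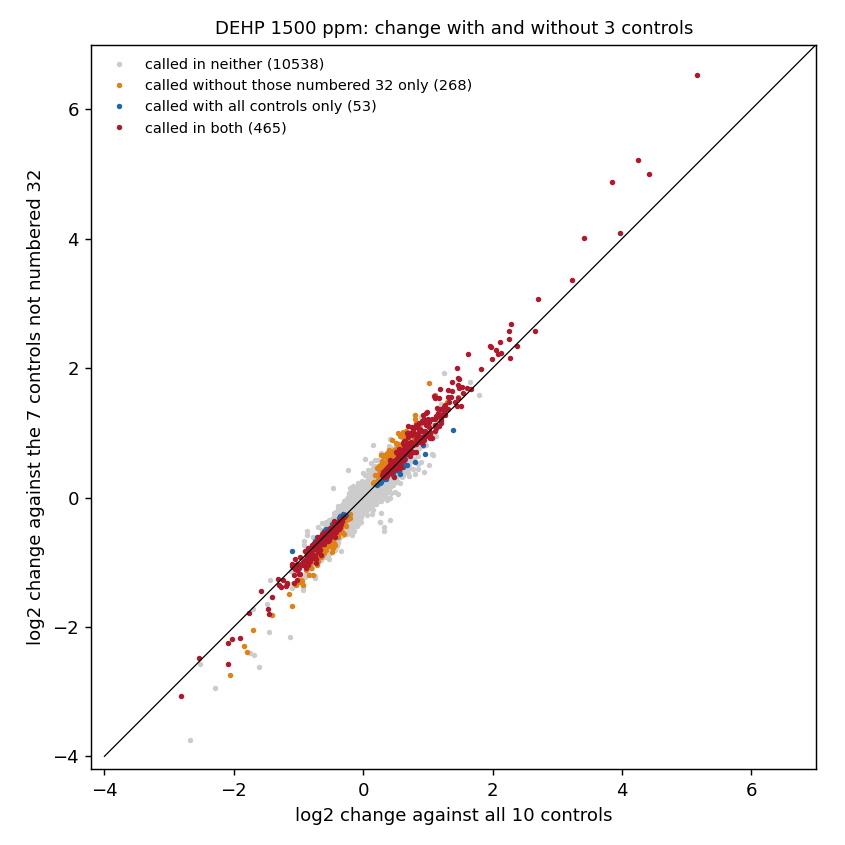
Log2 change of each tested gene at 1500 ppm DEHP against all 10 controls (horizontal) and against the 7 controls not numbered 32 (vertical), coloured by where it was called. The 260 higher and 205 lower genes called both ways lie in the upper right and lower left, and the line marks equal changes.

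Between neighbouring doses few genes passed. At 1500 against 750 ppm DEHP, 13 genes (0.115%) differed, 12 higher (0.106%) and 1 lower (0.00883%), and 927 had an unadjusted p under 0.05. Acot3 averaged 8.53 ± 0.52 at 1500 ppm and 6.25 ± 0.89 at 750 ppm (SD, n = 4 each), a log2 difference of 2.28 (limma adjusted p = 0.0406). LOC100047046 was higher by 1.56 (limma adjusted p = 1.84e-05), the synaptic adhesion protein Clstn3 by 1.23 and the nucleotide-sugar receptor P2ry14 by 1.13. However, P2ry14 seems to be read by several probes and its detection p-value passed in 0 of 4 samples at 1500 ppm. Cpt1b was higher by 1.05 and the fatty acid transporter Slc27a1 by 0.88. Egfr was the gene that was lower, at 9.90 ± 0.18 at 1500 ppm and 10.99 ± 0.24 at 750 ppm (SD, n = 4 each), a difference of -1.09 (limma adjusted p = 0.00922). Cyp4a14 averaged 13.5 ± 0.08 at 1500 ppm and 13.08 ± 0.03 at 750 ppm (SD, n = 4 each), and the difference of 0.42 had a 95% interval of -1.44 to 2.28. Intervals here come from the spread pooled over all 18 groups, not from the 2 groups compared. For Cyp4a14 the controls alone ran from 4.50 to 12.16, so its interval does not describe the narrow spread at these 2 doses. Ehhadh was higher by 1.83, with an interval of 0.76 to 2.91, and did not pass over all genes (limma adjusted p = 0.213). The count was 2 without 750 ppm replicate 3, 5 without 750 ppm replicate 2 or 1500 ppm replicate 1 or 4, and 2 with median centring.

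At 1500 against 3000 ppm DEHP, 7 genes (0.0618%) differed by limma, 1 higher (0.00883%) and 6 lower (0.053%), and 402 had an unadjusted p under 0.05. Serpina12 was the higher one, at 10.2 ± 0.14 at 1500 ppm and 8.39 ± 0.52 at 3000 ppm (SD, n = 4 each; difference 1.82, limma adjusted p = 0.00614). Over the dose series it averaged 11.51 at 0, 11.07 at 750, 10.2 at 1500, 8.39 at 3000 and 7.45 at 6000 ppm. The lower genes were Cyp2b9, the droplet protein Cidec, Slc27a1, the sperm mitochondrial protein Smcp, the protease Ctse and the homeodomain gene Pknox2. Cidec (limma adjusted p = 0.000464) was detected in 0 of 4 samples at 1500 ppm, so no exact difference is given, and averaged 4.49, 4.33, 4.61, 5.56 and 5.13 from 0 to 6000 ppm. Slc27a1 differed by -0.94 (limma adjusted p = 0.00817). The count was 2 without 3000 ppm replicate 1 and 3 without 3000 ppm replicate 4 or 1500 ppm replicate 1. Ehhadh averaged 7.37 at 0, 9.94 at 750, 11.77 at 1500, 12.28 at 3000 and 11.89 at 6000 ppm, and the 1500 ppm level differed from 3000 ppm by -0.52 (95% interval -1.59 to 0.56). Krt23 averaged 5.25, 7.19, 9.24, 10.03 and 9.07 over the same doses, and its 1500 ppm level differed from 3000 ppm by -0.79 (95% interval -1.79 to 0.21).

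**Figure D5:**
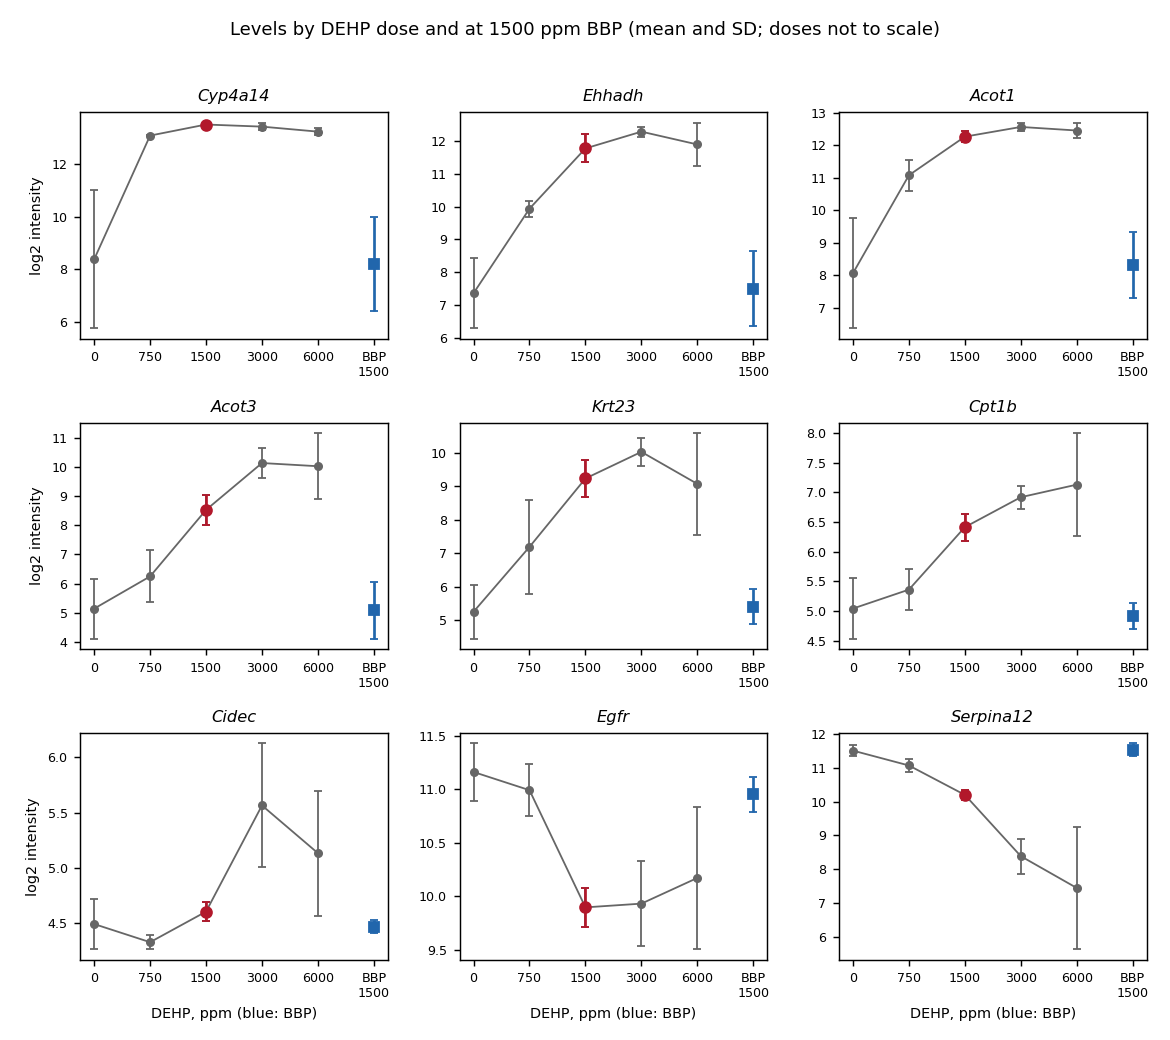
Mean log2 intensity with SD bars of 9 genes in controls, at 750, 1500, 3000 and 6000 ppm DEHP and at 1500 ppm BBP, with 10 controls and 4 samples in every other group. Cyp4a14 is at 13.08 at 750 ppm, 13.5 at 1500 ppm and 13.23 at 6000 ppm, Serpina12 goes on to 7.45 at 6000 ppm, and BBP lies near the controls for Cyp4a14, Ehhadh and Acot1.

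BBP is a phthalate diester that bears a butyl and a benzyl group where DEHP bears branched 2-ethylhexyl groups, and 1 pair of compounds was compared, at 1500 ppm. With DEHP, 193 genes (1.7%) differed from BBP by limma, 128 higher (1.13%) and 65 lower (0.574%). The BBP samples were less alike than most DEHP samples, with correlations of 0.957 to 0.972 with the rest of their group, lowest in BBP replicate 3. Ehhadh averaged 11.77 ± 0.42 with DEHP and 7.502 ± 1.142 with BBP (SD, n = 4 each), a difference of 4.27 (limma adjusted p = 1.95e-07). Cyp4a14 averaged 13.5 ± 0.08 with DEHP and 8.22 ± 1.79 with BBP (SD, n = 4 each), a difference of 5.29 (SE 0.93, limma adjusted p = 0.000167). Acot1 was higher with DEHP by 3.96, Cyp4a31 by 4.35 and Krt23 by 3.83, all called. By list, with DEHP 7 of 21 peroxisomal, 10 of 21 mitochondrial fatty acid and 5 of 34 glutathione and NRF2 genes were higher than with BBP, and 3 of 24 complement and 3 of 23 coagulation genes were lower. Dnaic1, Mmd2, Serpina12 and Irf5 were lower with DEHP, with log2 differences of -1.95, -1.83, -1.33 and -1.31, as was Lrtm1 at -1.82 (limma adjusted p = 0.00715). The call of Me1 was not repeated, at a difference of 1.80 with a 95% interval of 0.49 to 3.11 (limma adjusted p = 0.204). Nor was Moxd1 called (-1.48, interval -3.11 to 0.16).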

How the data were processed

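Liver RNA of 77 samples in 18 groups was measured on 1-colour Illumina arrays. Per the file headers, the deposited table gives an average bead signal per gene as intensity, without normalization by the authors, for 18138 array genes, and a detection p-value of each signal. A deposited matrix holds an intensity the authors had normalized by a method not given in the sources used here. It served as an alternative. From the deposited intensity, log2 values were computed with limma 3.58.1 in R 4.3.3: normexp background from the negative controls, an offset of 16, and quantile normalization. The 11324 genes with a detection p under 0.05 on at least 3 arrays were fitted in 18 group means over all 77 samples, with the label number as a random block (correlation 0.0992). Tests were two-sided with Benjamini-Hochberg adjustment over all tested genes. Fold changes depend on the offset for dim genes. By their detection p-values, 78.1% of genes lie on the grid of single signals. The others seem to be read by several probes, so that their detection p-values are not those of 1 signal. Probe annotation was not used here. The number of arrays limits the precision.

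Named genes are a panel of 12, the 8 called rises and 8 called falls with the largest change among separated genes, up to 4 called members of each list, and the 5 largest called rises and falls of each other comparison; other list members are given for a list's main enzymes. The members and the 40 lists were chosen with earlier results of these data known. Leave-one-out fits kept the block correlation. The fit was tested on simulated data. Alternatives were no background correction, neqc, median centring, the deposited matrix, no filter or detection on at least 8 arrays, an offset of 50, no block, the replicate number as a block, array weights, averaging by label number, fitting only the groups compared, and leaving out samples.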

Additional observations from a re-analysis of the deposited data

Results flagged for a closer look

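Among 212 groups of samples examined for the named genes, 12 held 1 sample far from the others; about 1 group in 20 does so by chance. Of these, 6 were in DEHP replicate 3. It was low for Cyp3a11 (10.02, the others 12.37 to 12.82), Pex5 (8.597, the others 8.826 to 8.868) and Csad (8.347, the others 9.272 to 9.372). It was high for Cdc20 (6.372, the others 5.31 to 5.388), Aurka (6.402, the others 5.132 to 5.276) and Itih4 (12.51, the others 12.12 to 12.18). Cyp2b10 was high in DEHP replicate 1 (4.61, the others 4.376 to 4.399) and in control replicate 1 (4.766, the others 4.287 to 4.425). Among controls, Cyp2c39 was high in replicate 1 (5.53, the others 4.368 to 4.954), LOC100047046 in replicate 2 (5.564, the others 4.283 to 4.878), Cyp2b9 in replicate 8 (4.572, the others 4.291 to 4.4) and Smcp in replicate 9 (4.655, the others 4.31 to 4.488).

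The 2 phthalates differed at 1500 ppm by limma's test of the difference itself, as log2 DEHP minus BBP, in Cyp4a14 (5.288), Cyp4a31 (4.351), Ehhadh (4.267), Acot1 (3.957), Krt23 (3.828), Irf5 (-1.309), Serpina12 (-1.329), Lrtm1 (-1.816), Mmd2 (-1.825) and Dnaic1 (-1.951).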

How the results depend on the processing

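For DEHP 1500 ppm against phthalate controls, the count of called genes was 132 with each array centred on its median, 297 with only the groups of the comparison in the fit, 317 with samples of 1 label number averaged and 1281 with array quality weights, against 518 as reported. The causes were not tested, but averaging and fitting fewer groups leave fewer samples. With median centring the count was 190 for DEHP 1500 ppm against phthalate controls without those numbered 32, 2 for DEHP 1500 ppm against DEHP 750 ppm and 45 for DEHP 1500 ppm against BBP 1500 ppm. Leaving out single samples gave 321 to 594 calls against controls, 533 to 787 without the controls numbered 32, 2 to 14 against 750 ppm, 2 to 7 for DEHP 1500 ppm against DEHP 3000 ppm and 114 to 208 against BBP. The lowest counts came without 1500 ppm replicate 1 against controls (321) and BBP (114), without 750 ppm replicate 3 (2) and without 3000 ppm replicate 1 (2). Counts also moved by over 1.5 times against 750 ppm without 1500 ppm replicate 1 or 4 (5 each) and 750 ppm replicate 2 or 4 (5 and 7), against 3000 ppm without 1500 ppm replicate 1, 3 or 4 (3, 4 and 4) and 3000 ppm replicate 4 (3), and against BBP without 1500 ppm replicate 4 (126) and BBP replicate 3 (127). With the replicate number as a block, 677 genes were called against controls, 753 without those numbered 32, 13 against 750 ppm, 2 against 3000 ppm and 211 against BBP. That fit left out the phenobarbital samples and their controls. Deviations of the same replicate number correlated at -0.24, 0.11, 0.07 and 0.03, and no DEHP sample correlated best with its own number. With 4 DEHP samples this cannot tell whether a replicate number marks something the samples share. No named gene that was called as reported changed direction under any alternative. Uncalled genes with little change, such as Fgf21 and Cyp2b10, can change sign when 1 sample is left out. Of 106 named genes, 35 were no longer called with median centring, 25 with only the groups of the comparison, 18 with samples of 1 label number averaged, 10 with neqc and 2 in the deposited matrix. Low signal over background limits the folds of dim genes.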

Other observations

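Most called genes, 394 of 518, lie in none of the 40 lists. Those named here were chosen after their values were seen, among the largest changes outside the lists, and serve as description. Among the rises were genes of lipid and retinoid metabolism: Hsd17b11, a dehydrogenase found on lipid droplets (3.53-fold), and Rdh16, a retinol dehydrogenase (4.23-fold, limma adjusted p = 8.69e-06). Hsd17b11 seems to be read by several probes, and its lowest DEHP sample, at 8.976, was just under the highest control, at 8.977. Serinc2, a serine incorporator, rose 4.77-fold (limma adjusted p = 4.23e-10), and Raet1b, a stress ligand of the NK cell receptor NKG2D, rose 4.14-fold (limma adjusted p = 4.7e-06). The esterase Ces1e rose 2.78-fold. Among the falls, Crym, a thyroid hormone binding protein, was at 0.442 of the control level (limma adjusted p = 1.26e-07), Erp27 of the endoplasmic reticulum at 0.441 and Wfdc12 at 0.295. Wfdc12 overlapped the controls, and averaged 5.25 at 1500 ppm DEHP, 5.56 at 1500 ppm BBP and 7.02 in controls.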
